A study of Mus musculus with 24 samples.

Results

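The activin, myostatin and follistatin axis was followed through 9 of the 28109 genes in the deposited table, taken by gene name. They are the ligand genes Mstn, Inhba and Inhbb, the binder genes Fst, Fstl1 and Fstl3, and the receptor genes Acvr1b, Acvr2a and Acvr2b. Their mRNA was counted in C2C12 cells, a mouse myoblast line that descends from 1 clone and is labelled with the C3H strain, and in primary myoblasts (PMs) labelled C57/B6, which the study isolated from mice of 3 to 4 weeks. Cells received siControl, a non-targeting siRNA labelled siLuc, or siTead1/4, pools of siRNAs against Tead1 and Tead4 together. Day 0 cells were collected 24 hours after transfection, before the change to medium with 2% horse serum, and the others at day 3 or day 6 of differentiation. With 2 biological replicates in each of the 12 groups there were 24 libraries.

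Myostatin and the activins are secreted dimers of the Tgfb superfamily. They bind a type II receptor, Acvr2a or Acvr2b, which activates a type I receptor such as Acvr1b, and the receptors signal through Smad2 and Smad3. Mstn encodes myostatin, known as a brake on muscle growth, while Inhba and Inhbb encode the subunits of activin A and activin B. Follistatin, the product of Fst, and the related Fstl3 bind activins and myostatin and keep them from their receptors, and Fstl1 encodes a more distant secreted relative.

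The total count on genes was 25453830 to 52784510 per library (median 39204772). Pearson's r between the log2 CPM of the replicates of a group was 0.981 to 0.993. The counts of every pair of replicates differed beyond sampling noise (chi-square per gene 15.9 to 268). The labels call the replicates biological, and whether they came from separate animals or cultures is not given in the sources used here. Levels are in CPM, the count per library scaled to library size by the TMM method of edgeR. Tead4, a target of the siRNAs, fell at days 0 and 3 in C2C12 cells and at each day in PMs. At day 6 in C2C12 cells it was at 86.5 and 150 CPM under siControl and 39.7 and 57.2 CPM under siTead1/4. That log2 fold change of -1.28 was not called (edgeR adjusted p = 0.318). Tead1 fell in PMs at days 0 and 3 and was called in C2C12 cells at no day. In C2C12 cells at day 0 it was at 70.5 and 113 CPM under siControl and 28.9 and 4.50 CPM under siTead1/4. The log2 fold change was -2.46 (edgeR adjusted p = 0.168). The day 3 values were 95.6 and 151 CPM against 66.9 and 51.1 CPM (-1.09, edgeR adjusted p = 0.501). The groups were apart at both days and overlapped at day 6 (-0.52). Its siTead1/4 replicates in C2C12 cells had 1228 and 123 counts at day 0. Replicates of the siTead1/4 groups of C2C12 cells were the furthest apart, with an SD over genes of their log2 difference of 0.629 to 0.737 against 0.417 to 0.570 elsewhere. The summed level of 10 myogenic markers was 605 to 22000.1 CPM in C2C12 cells and 9798 to 41721 CPM in PMs. The macrophage markers Ptprc and Emr1 had at most 3 counts in every library, as had the Schwann cell marker Sox10 in C2C12 cells. The 5 macrophage markers summed to 0.847 to 2.34 CPM in C2C12 cells and 2.35 to 6.18 CPM in PMs. The 5 Schwann cell markers summed to 0.893 to 20.7 CPM in C2C12 cells. Their siControl libraries of day 0 were the highest, at 20.7 and 16.2 CPM, against 10.6 and 8.14 CPM in PMs. In PMs the 5 Schwann cell markers summed to 10.6 to 27.1 CPM in the replicate 1 libraries and 5.43 to 16.9 CPM in the replicate 2 libraries. The 6 endothelial markers gave 14.2 to 27.0 CPM against 6.42 to 13.4 CPM. In bulk RNA, fewer cells of a type and less RNA per cell cannot be told apart.

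Per kilobase of gene length, the only scale on which genes are compared here, Fstl1 stood highest of the 9 genes in each of the 12 groups. In siControl C2C12 cells its mean level was 104 CPM per kb at day 0, 177 at day 3 and 149 at day 6, while in siControl PMs it was 20.6, 38.5 and 86.1 CPM per kb. In siControl C2C12 cells Fst stood above Acvr2b and Mstn alone at day 0, and at days 3 and 6 it was next after Fstl1 with 142 and 147 CPM per kb. In siControl PMs at day 0 the order below Fstl1 was Mstn with 15.4, Acvr2a with 11.1 and Fst with 7.09 CPM per kb. Mstn dropped to 2.32 CPM per kb at day 6, below all but Inhbb with 1.93 and Acvr2b with 1.03. Acvr2b was the lowest of the receptor genes in every group.

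**Figure D1:**
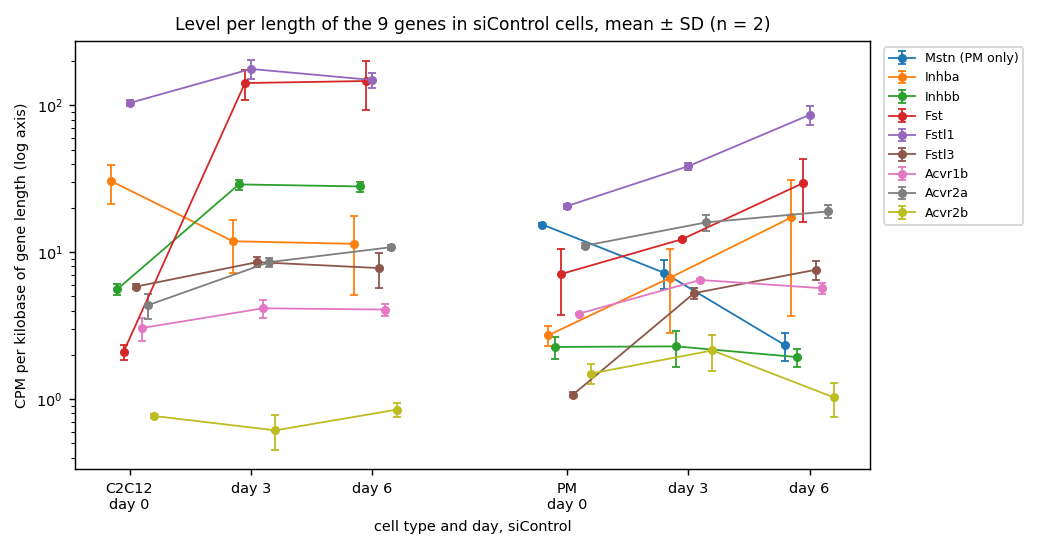
Mean level of each gene per kilobase of gene length in siControl cells (log axis, CPM per kb; bars are the SD of 2 replicates; horizontal axis, cell type and day). Mstn is drawn for PMs only, since it had 0 to 4 counts per siControl library in C2C12 cells; Fst climbs to 142 CPM per kb at day 3 in C2C12 cells, and Mstn descends from 15.4 to 2.32 CPM per kb in PMs.

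Mstn (ENSMUSG00000026100, chromosome 1 of mm9 from 53118507 to 53124923, plus strand) was almost silent in C2C12 cells. The siControl replicates held 0 and 0 counts at day 0. They held 2 and 4 counts at day 3 and 1 and 3 at day 6, and it did not pass the filter on low counts there. In siControl PMs it stood at 40.7 and 42.0 CPM at day 0, 22.6 and 16.4 CPM at day 3, and 7.21 and 5.25 CPM at day 6. The groups of PMs did not overlap and every later library was lower. Over the siControl group of day 0, the PM level was at least 1262-fold higher than 3 counts would give in C2C12 cells. The ratio of PM to C2C12 levels was 295 at day 3 (95% exact counting interval 135 to 806) and 128 at day 6 (49.4 to 470.4), where the C2C12 group held 6 and 4 counts. Under siTead1/4 the ratios were 561 (219 to 2060.5), 429 (218 to 995) and 74.7 (41.5 to 150.4) at days 0, 3 and 6. The intervals and the floor of 3 counts cover counting error only. Cell type, strain, medium and handling cannot be told apart in these comparisons.

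The 250 bases before the start of 3 genes are shown because Mstn and Inhbb were each called both between days and under siTead1/4, and Fstl3 rose in PMs at both later days. They are read 5′ to 3′ on the strand of the gene, from RefSeq on GRCm38.p6, which is not the mm9 build of the counts. Capitals mark CANNTG, the E-box letters that myogenic bHLH factors such as Myod1 bind. CATTCC, the core letters of the MCAT element that Tead factors bind, was searched on both strands as well.
Mstn (chr1:53061390-53061639, plus strand): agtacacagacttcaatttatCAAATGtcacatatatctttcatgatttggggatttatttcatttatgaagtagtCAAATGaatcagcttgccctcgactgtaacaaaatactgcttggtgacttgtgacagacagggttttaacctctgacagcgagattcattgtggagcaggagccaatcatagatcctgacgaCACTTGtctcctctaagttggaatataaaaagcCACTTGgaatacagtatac
Inhbb (chr1:119422249-119422498, minus strand): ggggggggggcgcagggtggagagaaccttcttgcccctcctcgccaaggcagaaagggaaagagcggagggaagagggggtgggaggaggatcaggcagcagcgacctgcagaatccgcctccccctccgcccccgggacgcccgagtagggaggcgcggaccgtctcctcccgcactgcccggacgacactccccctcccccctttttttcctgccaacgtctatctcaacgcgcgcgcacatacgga
Fstl3 (chr10:79777024-79777273, plus strand): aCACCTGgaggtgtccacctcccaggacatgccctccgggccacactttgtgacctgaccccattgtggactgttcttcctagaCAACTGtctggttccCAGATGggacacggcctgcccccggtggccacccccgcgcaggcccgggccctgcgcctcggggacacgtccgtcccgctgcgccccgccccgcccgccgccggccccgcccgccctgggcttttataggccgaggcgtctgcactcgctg
Mstn held 4 matches to CANNTG, 229, 174, 52 and 19 bases before its start, and Fstl3 held 3, at 249, 166 and 151 bases. Inhbb held none. Of the 8 genes with an entry, 3 held CANNTG, the other being Acvr1b at 54 bases, against 66.2% of 32841 promoters of the same length. None of the 8 held CATTCC, against 12.6% of those promoters. The letters CANNTG are their own reverse complement and no match overlapped another motif. Fst had no entry.

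In siControl C2C12 cells Fst and Inhbb rose between day 0 and day 3, and Acvr2a joined them at day 6. A gene was called at an edgeR adjusted p under 0.05, corrected over all tested genes, and an absolute log2 fold change, here log2 change, over 1, and SE is its standard error. By this rule 2 of the 8 tested genes of the axis were called at day 3, both up, where 28.7% of 15303 genes were called, and 3 of 8 at day 6, against 31.1%. Their median log2 change was 0.62 at day 3 and 0.43 at day 6, and that of all tested genes was -0.01 at each day. Between day 6 and day 3 edgeR called none of the 8, nor any gene at all (0%), with 0 of the 8 and 406 genes of the whole table at an unadjusted p under 0.05. DESeq2 called none of the 8 and 19 genes in all.

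Fst (ENSMUSG00000021765, chromosome 13 from 115242470 to 115249159, minus strand), the follistatin gene, had the largest rise of the axis. It was at 5.15 and 6.11 CPM in the siControl C2C12 libraries of day 0, at 320 and 443 CPM at day 3 and at 292 and 495 CPM at day 6. The groups of days 3 and 6 overlapped each other and lay far above day 0. In the same libraries 4 of 5 tested fibroblast markers rose at day 3, with sums of 838 and 1342, 2538 and 3291, and 2361 and 2600.0 CPM at days 0, 3 and 6, and 7 of 10 myogenic markers rose, and their part was not tested. The log2 change was 6.04 at day 3 (SE 0.48, edgeR adjusted p = 1.3e-05) and 6.08 at day 6 (SE 0.48, edgeR adjusted p = 1.0e-05). In siControl PMs Fst was at 12.7 and 25.4 CPM, then 32.4 and 33.5 CPM, then 54.0 and 105 CPM. Its log2 change in PMs was 0.74 at day 3 (edgeR adjusted p = 0.21) and 2.00 at day 6 (SE 0.50, edgeR adjusted p = 0.0049). Across the siControl groups Fst was lowest in C2C12 cells at day 0 and highest in C2C12 cells at day 6, with all 3 PM groups between, and of the neighbours in this order days 3 and 6 of C2C12 cells alone overlapped.

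Inhbb (ENSMUSG00000037035, chromosome 1 from 121312042 to 121318825, minus strand), for the activin B subunit, was at 25.3 and 22.5 CPM in siControl C2C12 cells at day 0. It was at 116 and 130 CPM at day 3 and at 126 and 113 CPM at day 6, groups that overlap each other but not day 0. The log2 changes were 2.33 and 2.28 (SE 0.51 each, edgeR adjusted p = 0.0050 at each day). In siControl PMs Inhbb stayed within 7.41 to 11.7 CPM over the 6 libraries, with log2 changes of -0.04 and -0.29 (edgeR adjusted p = 0.91 and 0.38).

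Inhba (ENSMUSG00000041324, chromosome 13 from 16103684 to 16119044, plus strand), for the activin A subunit, had opposite signs in the 2 cell types. In siControl C2C12 cells it was at 47.7 and 72.8 CPM at day 0, 17.1 and 30.0 CPM at day 3, and 13.8 and 31.4 CPM at day 6. Both later groups lay below day 0, at log2 changes of -1.39 and -1.46, and neither was called (edgeR adjusted p = 0.11 and 0.094). It was called down at both days with the 4 libraries of each comparison alone, with no filter on low counts, and with the siTead1/4 day 0 replicate 1 library left out of the estimate of the spread, a fit added after seeing the data. The PM libraries under siControl held 4.79 and 6.00 CPM at day 0, 18.7 and 7.84 CPM at day 3, and 53.2 and 15.1 CPM at day 6. It rose at day 6 (log2 change 2.60, SE 0.68, edgeR adjusted p = 0.0067) but was not called at day 3 (1.24, edgeR adjusted p = 0.13). Replicate 1 stood above replicate 2 at days 3 and 6 under both siRNAs, as did the sum of the Schwann cell markers. These summed to 27.1 and 5.64 CPM in the siControl libraries of day 6, and their part in the result was not tested. Without siControl day 6 replicate 1 the day 6 value was 1.43 and not called, and it was not called (2.44) without siControl day 0 replicate 1.

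In siControl PMs Fst, Fstl1, Fstl3 and Inhba rose by day 6 while Mstn fell. Of the 9 genes 2 were called at day 3, Fstl3 up and Mstn down, where 32.3% of 16144 genes were called. At day 6 there were 5, with Fst, Fstl1, Fstl3 and Inhba up and Mstn down, against 35.5%, and between day 6 and day 3 Fstl1 rose and Mstn fell, against 2.8%. The median log2 change of the 9 was 0.71 at both days, and that of all tested genes 0.01 and 0.03. The 7 listed fibroblast markers summed to more at each later day of these PMs. Their level was 551 and 563 CPM at day 0, 1469 and 1592 CPM at day 3 and 3808 and 2759 CPM at day 6, 1 of the 6 tested was called up at day 3 and 3 at day 6, and Tcf21 had at most 3 counts in every library. Their part in the result was not tested.

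Mstn fell by 1.14 on the log2 scale at day 3 (SE 0.28, edgeR adjusted p = 0.0052) and by 2.80 at day 6 (SE 0.31, edgeR adjusted p = 2.0e-05). From day 3 to day 6 it fell by 1.65 (SE 0.30, edgeR adjusted p = 0.013). Without siControl day 3 replicate 2 the change at day 3 was -0.92 and below the fold threshold, and without siControl day 3 replicate 1 or day 6 replicate 2 the change from day 3 to day 6 was -1.41 and -1.45 and not called.

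Fstl3 (ENSMUSG00000020325, chromosome 10 from 79240017 to 79245375, plus strand), a close relative of follistatin, went from 2.18 and 2.31 CPM to 11.7 and 10.4 CPM at day 3 and 14.2 and 17.7 CPM at day 6 in siControl PMs. All 3 groups were apart. The log2 changes were 2.25 (SE 0.20, edgeR adjusted p = 6.3e-06) and 2.76 (SE 0.21, edgeR adjusted p = 1.5e-06). In siControl C2C12 cells it was at 11.9 to 19.5 CPM over the 6 libraries, with log2 changes of 0.51 and 0.38 (edgeR adjusted p = 0.16 and 0.29). An exon of Fstl3 overlaps one of Prss57 on the opposite strand, and the kit does not keep the strand, so reads there cannot be told apart.

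Fstl1 (ENSMUSG00000022816, chromosome 16 from 37776959 to 37836600, plus strand) was at 95.4 and 101 CPM, then 176 and 191 CPM, then 453 and 369 CPM at days 0, 3 and 6 in siControl PMs. Each group lay above the one before. At day 3 its log2 change of 0.85 had an edgeR adjusted p = 4.0e-04 but stayed under the fold threshold, and at day 6 it rose by 2.00 (SE 0.14, edgeR adjusted p = 1.1e-06). It rose by 1.15 from day 3 to day 6 (SE 0.14, edgeR adjusted p = 0.0026), a change that was 0.996 and under the fold threshold without siControl day 6 replicate 1. It was also not called with all 24 libraries in 1 fit (edgeR adjusted p = 0.104). In siControl C2C12 cells it was at 478 to 932 CPM over the 6 libraries, with log2 changes of 0.73 and 0.48 (edgeR adjusted p = 0.19 and 0.38).

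Of the receptor genes Acvr2a alone was called between days in siControl cells. Acvr2a (ENSMUSG00000052155, chromosome 2 from 48669629 to 48758789, plus strand) was at 21.4 and 28.1 CPM, then 46.1 and 51.3 CPM, then 59.6 and 63.4 CPM in siControl C2C12 cells, 3 groups that did not overlap. Its log2 change was 0.94 at day 3 (edgeR adjusted p = 0.019), under the fold threshold, and 1.27 at day 6 (SE 0.27, edgeR adjusted p = 0.0040). The PM libraries under siControl had 61.3 and 64.7 CPM at day 0, 83.1 and 98.5 CPM at day 3, and 99.9 and 116 CPM at day 6, and its log2 changes of 0.47 and 0.71 had edgeR adjusted p of 0.0079 and 6.2e-04 below the fold threshold. An exon of Acvr2a overlaps one of Orc4 on the opposite strand.

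Acvr1b (ENSMUSG00000000532, chromosome 15 from 101004556 to 101043032, plus strand), for the type I receptor, ranged from 8.73 to 15.02 CPM in the siControl C2C12 libraries. It went from 12.5 and 12.5 CPM to 20.9 and 21.6 CPM at day 3 and 19.9 and 17.4 CPM at day 6 in siControl PMs, log2 changes of 0.71 and 0.51 (edgeR adjusted p = 0.0090 and 0.041) that did not reach the fold threshold. Acvr2b (ENSMUSG00000061393, chromosome 9 from 119311562 to 119342619, plus strand), the other type II receptor gene, was the lowest of the receptor genes per kilobase. It was at 0.873 to 1.60 CPM in siControl C2C12 cells and 1.47 to 4.49 CPM in siControl PMs, and was called at no day in either.

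**Figure D2:**
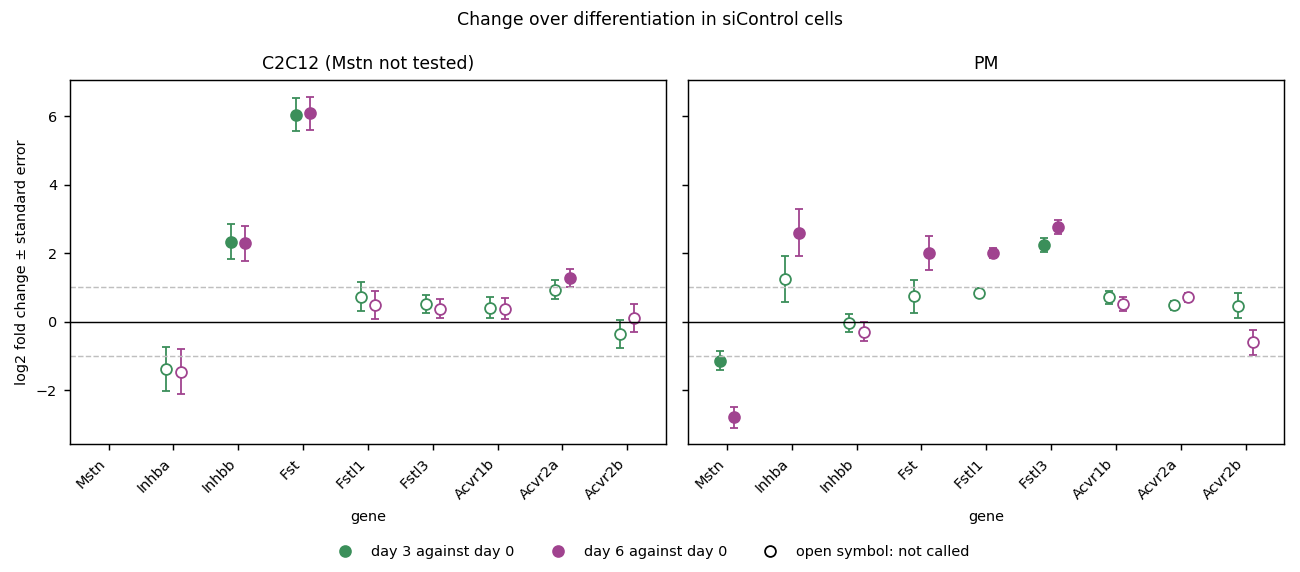
Log2 fold change of each gene at day 3 and day 6 against day 0 in siControl cells (vertical axis, log2 change with its SE from edgeR; dashed lines mark 1 and -1; filled symbols were called). Fst stands alone at 6.04 and 6.08 in C2C12 cells, and in PMs Mstn is the one gene called down, at -1.14 and -2.80.

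Whether the day changes of siControl cells differ between the cell types was tested with all 24 libraries in 1 fit of 12 group means. Of the 9 genes 4 were called at day 3, where 11.2% of 16926 genes were called, and 6 at day 6, against 12.7%. Mstn is among them at both days, though it did not pass the filter in C2C12 cells and entered this fit through its PM groups. Since its C2C12 groups sit near 0 counts, its fitted difference carries no size and its call is not read as a result. That call was lost in 8 of the 8 fits that leave out 1 library at day 3 and in 2 at day 6. The other genes called were Fst, Inhbb and Fstl3 at both days, and Inhba and Fstl1 at day 6. The change of Fst in PMs minus that in C2C12 cells was -5.28 on the log2 scale at day 3 (SE 0.72, edgeR adjusted p = 8.0e-05) and -4.06 at day 6 (SE 0.70, edgeR adjusted p = 6.6e-04). For Inhbb the differences of PM minus C2C12 changes were -2.35 and -2.55 (edgeR adjusted p = 0.015 and 0.0086). Fstl3 had differences of 1.75 and 2.41 (edgeR adjusted p = 0.0022 and 1.1e-04). At day 6 the difference was 4.09 for Inhba (SE 1.04, edgeR adjusted p = 0.012) and 1.54 for Fstl1 (SE 0.46, edgeR adjusted p = 0.032). The day 6 call of Fstl1 was lost in 7 of the 8 fits that leave out 1 library, all but that without PM siControl day 6 replicate 2. That of Inhba was lost in 3, those without replicate 1 of PM day 0, PM day 6 or C2C12 day 6. The day 3 call of Inhbb was lost in 3, those without PM day 3 replicate 1, PM day 0 replicate 2 or C2C12 day 0 replicate 2.

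Between PMs and C2C12 cells at the same day, 7 of the 9 genes were called at day 0, where 26.8% of 16926 genes were called. Beside Mstn, Acvr2a (log2 change 1.35, edgeR adjusted p = 1.4e-04) and Fst (1.75, edgeR adjusted p = 0.010) were higher in PMs. Fstl1 (-2.33, edgeR adjusted p = 3.7e-05), Fstl3 (-2.45, edgeR adjusted p = 9.4e-07), Inhba (-3.48, edgeR adjusted p = 0.0018) and Inhbb (-1.31, edgeR adjusted p = 0.023) were lower. At day 3 there were 5, against 29.8%, with Mstn and Acvr2b (3.48-fold, edgeR adjusted p = 0.0014) higher and Fst (-3.53), Fstl1 (-2.20) and Inhbb (-3.66) lower in PMs (edgeR adjusted p = 3.95e-05, 6.33e-05 and 9.79e-06). At day 6 there were 3, against 24.9%, Mstn higher and Fst (-2.31) and Inhbb (-3.86) lower (edgeR adjusted p = 0.00145 and 8.6e-06). Fst was thus higher in PMs at day 0 and lower at days 3 and 6. Its call at day 0 was lost in 3 of 4 fits without 1 library, those without PM replicate 2 or either C2C12 replicate, and that of Inhbb in 3, those without either PM replicate or C2C12 replicate 1.

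**Figure D3:**
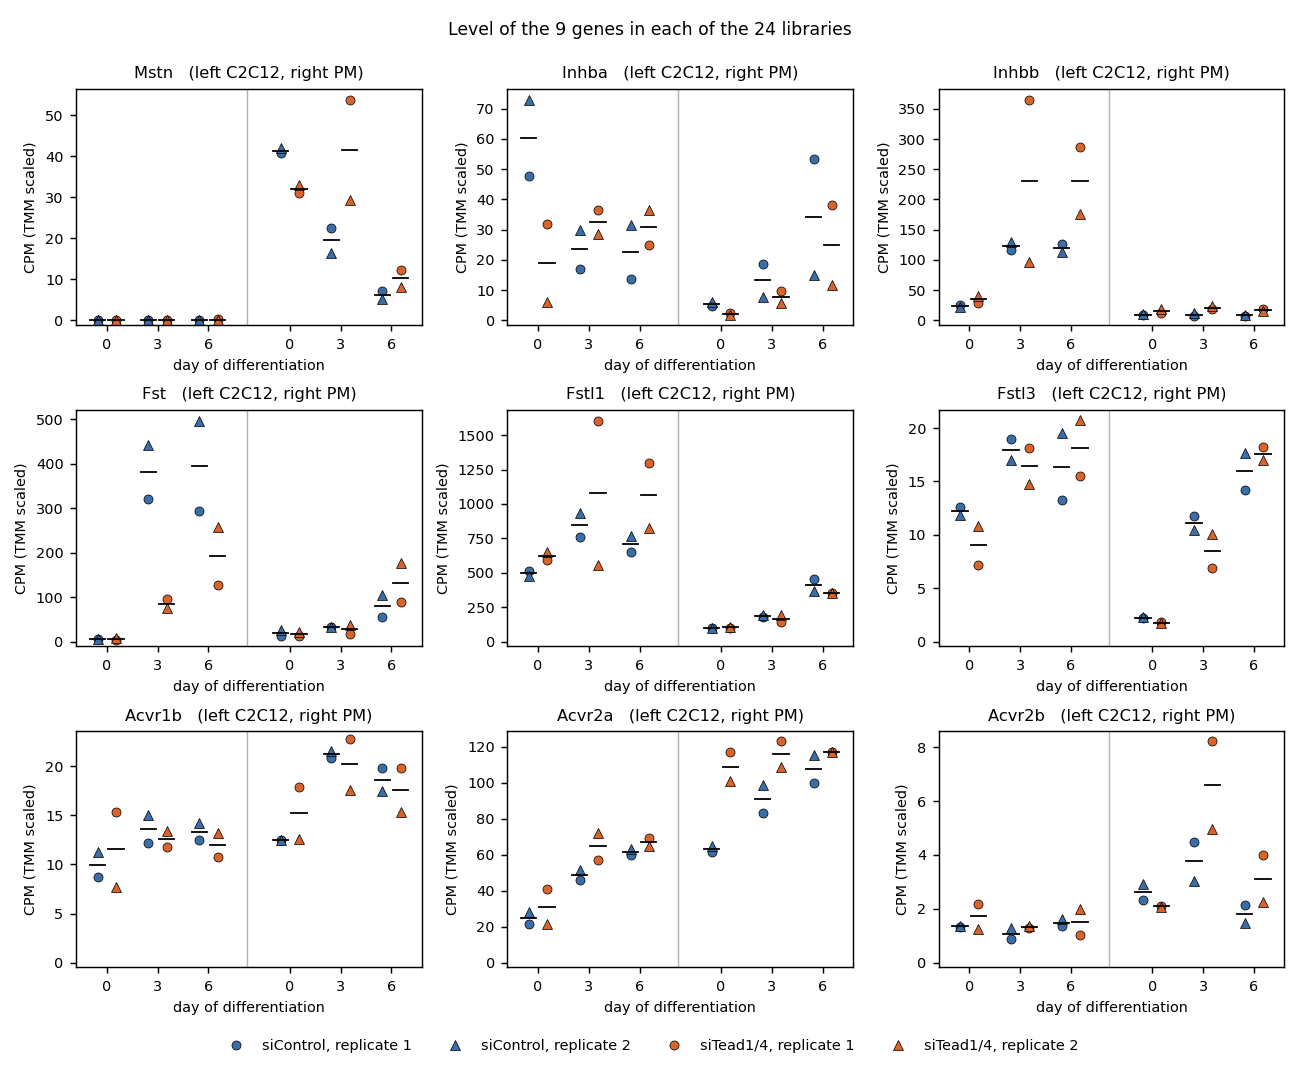
Level of each gene in each of the 24 libraries (vertical axis, CPM scaled by TMM, from 0; horizontal axis, day, with C2C12 cells on the left of each panel and PMs on the right; circles and triangles are replicates 1 and 2, bars their mean). The siTead1/4 libraries of C2C12 cells at day 3 lie at 95.7 and 74.5 CPM for Fst, below 320 and 443 CPM under siControl, and replicate 1 of the PM libraries stands above replicate 2 for Inhba at days 3 and 6.

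Silencing of Tead1 and Tead4 gave 3 calls in the axis, all at day 3. At day 0 edgeR called none of the 8 genes tested in C2C12 cells, where 0.438% of 15303 genes were called, and none of the 9 in PMs, against 2.6% of 16144. At day 3 Fst was called down in C2C12 cells, 1 of 8 against 1.27%, and Mstn and Inhbb were called up in PMs, 2 of 9 against 3.3%. At day 6 none was called in C2C12 cells (0.0457%) or PMs (0.743%). At an unadjusted p under 0.05 the comparisons without a call held Inhba in C2C12 cells at day 0, Fst in C2C12 cells at day 6, Inhbb and Acvr2a in PMs at day 0, and Mstn and Inhbb in PMs at day 6. DESeq2 called none of the genes in these comparisons other than Inhbb in PMs at day 6.

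In C2C12 cells at day 3, Fst was at 320 and 443 CPM under siControl and at 95.7 and 74.5 CPM under siTead1/4. Both silenced libraries lay below both controls, and the log2 change was -2.19 (SE 0.40, edgeR adjusted p = 0.034). It was at 5.15 and 6.11 CPM against 4.42 and 7.46 CPM at day 0 (0.07, edgeR adjusted p = 0.98), and at 292 and 495 CPM against 127 and 258 CPM at day 6 (-1.03, edgeR adjusted p = 0.60), where the groups were still apart. The myosin gene Myh3 fell in the same day 3 comparison (-2.47, edgeR adjusted p = 0.034), and the 10 myogenic markers, of which it alone was called, summed to 17907 and 21080 CPM under siControl and 7353 and 9641 CPM under siTead1/4. The macrophage marker Itgam fell too, 1 of 3 tested, and its list of 5 summed to 2.12 and 2.08 CPM against 0.847 and 1.30 CPM. Their part in the result was not tested. The call of Fst at day 3 was lost on leaving out any 1 of its 4 libraries, at -1.93 to -2.41 with edgeR adjusted p of 0.0512 to 0.215, with at least 10 counts required in every library (-2.22) and with the 4 libraries alone (-2.17). Over these and its other alternatives the adjusted p of edgeR or DESeq2 ranged from 1.6e-13 to 0.215.

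In PMs Fst was not called at any day (log2 changes of -0.18, -0.29 and 0.73, edgeR adjusted p = 0.86, 0.79 and 0.64). The silenced PMs had 12.3 and 21.3, 17.6 and 36.8, and 88.5 and 176 CPM at days 0, 3 and 6, groups that overlapped the siControl PMs at each day. The difference of the Fst effect between PMs and C2C12 cells, tested as an interaction, was 1.88 at day 3 (SE 0.67, edgeR adjusted p = 0.21) and 1.76 at day 6 (edgeR adjusted p = 0.69), neither of them called.

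Mstn in PMs at day 3 was at 22.6 and 16.4 CPM under siControl and at 53.6 and 29.4 CPM under siTead1/4. The silenced libraries were the higher ones without overlap, at a log2 change of 1.09 (SE 0.28, edgeR adjusted p = 0.044). The day 0 values were 40.7 and 42.0 CPM against 31.1 and 32.9 CPM (-0.38, edgeR adjusted p = 0.46), and those of day 6 were 7.21 and 5.25 CPM against 12.2 and 8.25 CPM (0.72, edgeR adjusted p = 0.38), again without overlap. The mean of silenced PMs went from 32.0 to 41.5 and then to 10.2 CPM, where that of siControl PMs went from 41.3 to 19.5 and 6.23 CPM. The higher silenced mean at day 3 came from replicate 1, since replicate 2 at 29.4 CPM lay below both silenced libraries of day 0. The change between days within silenced PMs was not tested. The siTead1/4 effect at day 3 minus that at day 0 was 1.46 (SE 0.39, edgeR adjusted p = 0.13), not called, though DESeq2 called it.

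Inhbb in PMs was higher under siTead1/4 at every day. It was at 8.46 and 10.8 CPM against 12.2 and 19.5 CPM at day 0 (log2 change 0.71, edgeR adjusted p = 0.14), at 7.80 and 11.7 CPM against 18.1 and 24.5 CPM at day 3 (1.12, SE 0.27, edgeR adjusted p = 0.033), and at 7.41 and 9.03 CPM against 19.3 and 15.9 CPM at day 6 (1.10, SE 0.27, edgeR adjusted p = 0.095). The groups were apart at each day. In the main edgeR fit the change was called at day 3 alone, but that of day 6 was of like size and DESeq2 called it, so no difference between these days is shown. In C2C12 cells its log2 changes were 0.55, 0.89 and 0.96 with none called (edgeR adjusted p = 0.79, 0.47 and 0.79), and the silenced replicates were far apart at day 3, at 364 and 96.6 CPM. The endothelial marker Vwf, named after its value was seen, rose in the same PM day 3 comparison. The 6 endothelial markers summed to 18.8 and 6.42 CPM under siControl and 27.0 and 13.4 CPM under siTead1/4. These groups overlap, and replicate 1 was the higher under both siRNAs. The part of these markers in the result was not tested.

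The calls of Mstn and Inhbb at day 3 in PMs were both lost when all 24 libraries were fitted together (1.09 and 1.13, edgeR adjusted p = 0.108 and 0.225). That of Mstn was lost with the 4 libraries alone. Each was lost in 3 of the 4 fits that leave out 1 library. Mstn was called without siTead1/4 replicate 2 alone and ranged from 0.58 to 1.45, and Inhbb was called without siControl replicate 2 alone and ranged from 0.86 to 1.44. Over all alternatives the edgeR or DESeq2 adjusted p ranged from 1.7e-04 to 0.265 for Mstn and from 2.4e-04 to 0.225 for Inhbb.

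Among the receptor genes Acvr2a had the smallest adjusted p under silencing. In PMs at day 0 it was at 61.3 and 64.7 CPM under siControl and at 117 and 101 CPM under siTead1/4, a log2 change of 0.78 (SE 0.13, edgeR adjusted p = 0.0061) that stayed under the fold threshold. The log2 change was 0.35 at day 3 and 0.12 at day 6 (edgeR adjusted p = 0.13 and 0.81). Acvr2b in PMs was at 4.49 and 3.03 CPM against 8.22 and 4.96 CPM at day 3 (0.80, edgeR adjusted p = 0.20) and Acvr1b had log2 changes of -0.15 to 0.28 over the 6 comparisons.

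Inhba had the widest spread under silencing. In C2C12 cells at day 0 it was at 47.7 and 72.8 CPM under siControl and at 31.7 and 5.96 CPM under siTead1/4 (log2 change -1.68, SE 0.65, edgeR adjusted p = 0.38). The lower silenced library, replicate 2, was also the one with the lower Tead1 count, and a link between them was not tested. Replicate 2 was also below replicate 1 for Acvr1b, Acvr2a and Acvr2b, and above it for Fst, Fstl1, Fstl3 and Inhbb. In PMs at day 0 Inhba was at 4.79 and 6.00 CPM against 2.40 and 1.94 CPM (-1.32, edgeR adjusted p = 0.30), groups that did not overlap. It was called down with the 4 libraries of that comparison alone and with no filter on low counts. Fstl1 and Fstl3 had log2 changes of -0.44 to 0.59 over the 6 comparisons, none called. The silenced C2C12 replicates of Fstl1 at day 3 were at 1606 and 555 CPM, either side of siControl.

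**Figure D4:**
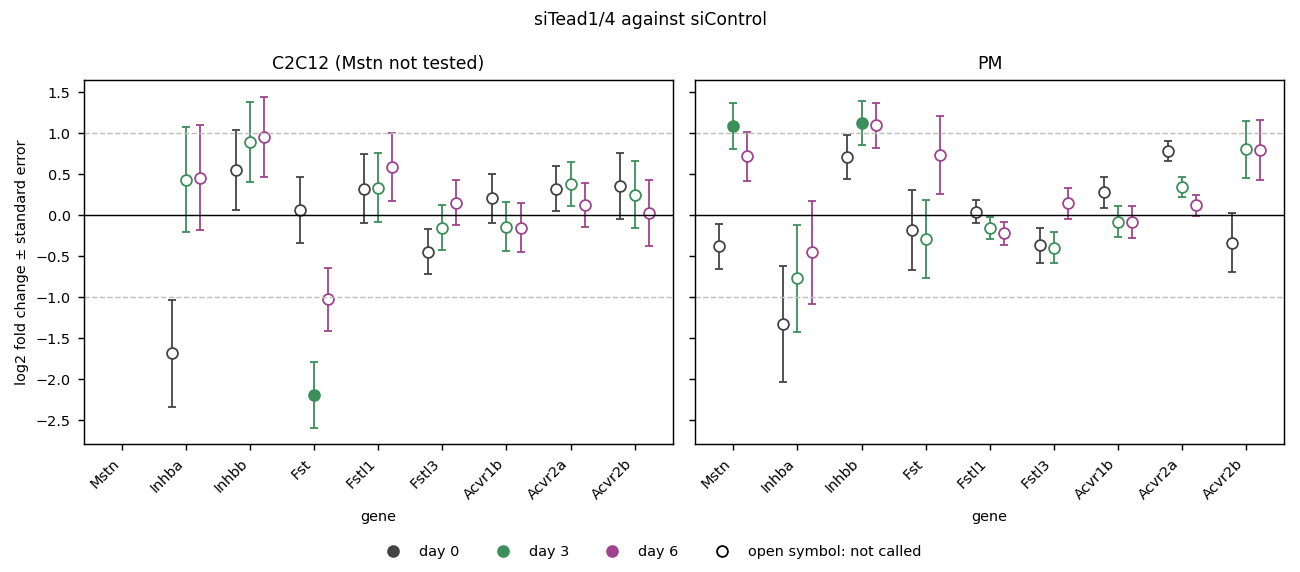
Log2 fold change of each gene in siTead1/4 against siControl cells at days 0, 3 and 6 (vertical axis, log2 change with its SE from edgeR; dashed lines mark 1 and -1; filled symbols were called). Fst at day 3 in C2C12 cells (-2.19) and Mstn (1.09) and Inhbb (1.12) at day 3 in PMs are the filled symbols.

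Tests of whether the siTead1/4 effect differed between days or between cell types called none of the axis in the main edgeR fits. For day 3 and day 6 against day 0, edgeR called 0% of genes in C2C12 cells and 0.328% and 0.626% in PMs. Of the genes of the axis, Fst and Inhba in C2C12 cells and Mstn, Acvr2a and Acvr2b in PMs had an unadjusted p under 0.05 at day 3, and Inhba in C2C12 cells and Mstn and Acvr2a in PMs at day 6. DESeq2 called Fst in C2C12 cells (-2.26) and Mstn in PMs (1.47) at day 3. Between the cell types edgeR called 0.00591%, 1.25% and 0.0354% of 16926 genes at days 0, 3 and 6. Of the axis Mstn at day 0 and Fst at days 3 and 6 had an unadjusted p under 0.05, and DESeq2 called none. The C2C12 side of the Mstn value is 0 and 0 counts under siControl and 2 and 2 counts under siTead1/4. Nothing is read from it. With the replicate number as a block, edgeR called Mstn for day 3 against day 0 in PMs (1.44, edgeR adjusted p = 0.0271). That fit also called Fst between cell types at day 3 (1.68, edgeR adjusted p = 0.0376).

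The other genes of the pathway were read from lists of ligands and subunits (7 genes), binders and co-receptors (8), ligand processing (7), receptors (7) and Smad genes (12), which include the 9 genes. In siTead1/4 cells 1 further listed gene was called, Dcn, whose product decorin is a matrix proteoglycan that binds Tgfb and myostatin. It was at 64.3 and 40.2 CPM under siControl and at 8.37 and 10.6 CPM under siTead1/4 in PMs at day 6 (log2 change -2.46, SE 0.39, edgeR adjusted p = 0.018). In that comparison 0.743% of 16144 genes were called. The fibroblast marker Lum, another proteoglycan gene, fell in the same comparison by 2.79 on the log2 scale (edgeR adjusted p = 0.029), 1 of the 6 tested fibroblast markers. The 7 listed fibroblast markers summed to 3808 and 2759 CPM under siControl and 3321 and 2568 CPM under siTead1/4, groups that overlap. Their part in the result was not tested. Beside the 9 genes, none of the ligands, ligand processing genes, receptors or the 12 Smad genes was called under siTead1/4 at any day in either cell type. Over all tested genes the share called was 0.0457% to 1.27% in C2C12 cells and 0.743% to 3.3% in PMs, so few calls in lists of this size say little about them.

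Over differentiation the list of binders and co-receptors had 4 of its 7 tested genes called up and none down at day 3 in siControl C2C12 cells, with a median log2 change of 2.18, where 28.7% of all tested genes were called in either direction. Beside Fst these were Dcn (7.17), Wfikkn2 (3.21), for a secreted inhibitor of myostatin, and Tgfbr3 (2.18), for the co-receptor betaglycan, with edgeR adjusted p of 2.1e-04, 0.0082 and 0.013. In siControl PMs 2 of 7 were called up at day 3, Fstl3 and Dcn (1.14, edgeR adjusted p = 0.044), and 5 of 7 at day 6, with a median of 2.00, against 32.3% and 35.5% of all tested genes. Bambi, for a pseudoreceptor that lacks the kinase, fell at day 3 in C2C12 cells (-1.74, edgeR adjusted p = 0.035) and PMs (-1.46, edgeR adjusted p = 0.0011).

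Among the Smad genes Smad3, the transducer of activin and myostatin signals, rose at day 3 in C2C12 cells from 45.6 and 50.5 CPM to 126 and 136 CPM (log2 change 1.40, edgeR adjusted p = 0.0015). In PMs it rose from 29.3 and 29.3 CPM to 108 and 118 CPM (1.89, edgeR adjusted p = 2.3e-07). The inhibitory Smad6 and Smad7 fell at day 3 in both, Smad6 by 1.17 and 1.82 and Smad7 by 1.73 and 1.29 on the log2 scale in C2C12 cells and PMs (edgeR adjusted p = 0.018, 0.0040, 0.0025 and 6.3e-05). Pmepa1, for an inhibitor that binds Smad proteins, rose in PMs (1.52, edgeR adjusted p = 6.1e-05). That made 1 up and 2 down of 12 in C2C12 cells and 2 up and 2 down of 12 in PMs at day 3, shares near the 28.7% and 32.3% of all tested genes.

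For each gene, the 2 genes with the most similar log2 CPM over the 12 group means were found among 14576 others tested in both cell types (14577 for Mstn). They are given as a description, since the 12 means come from 2 cell types in 1 series. Mstn was nearest to Gal3st3 and Gpc2 (Pearson's r of 0.988 and 0.987), Inhba to Itga5 and Slc41a2 (0.977 and 0.970), and Inhbb to Sdc2 and Ptgfrn (0.982 and 0.981). Of the binders, Fst was nearest to Lbp and Gm5532 (0.980 and 0.961), Fstl1 to Anxa8 and Sh3gl3 (0.987 and 0.986), and Fstl3 to Ifi47 and Lox (0.986 and 0.984). Acvr1b was nearest to Dennd4b and Hydin (0.980 and 0.979), Acvr2a to 3110052M02Rik and Zfp93 (0.989 and 0.984), and Acvr2b to 4930423O20Rik and Mrc1 (0.971 and 0.943).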

How the data were processed

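Polyadenylated RNA was sequenced after TruSeq RNA v2 preparation, which loses the strand. Per the labels and the study's methods, the authors mapped reads to mm9 (NCBIM37), and the submitters' processing notes name TopHat2 2.0.10, Bowtie2 2.1.0, HTSeq 0.6.1 and DESeq2 1.8.1. The authors deposited raw read counts per gene, which were used here, and 2 normalized signal values per library (counts scaled by size factor, and those per kilobase), which were not. Gene length and mm9 positions come from the same table, and 36 columns of 12 libraries not listed as samples were not used. The positions of the 9 genes are identical in GENCODE vM1, from which strand and overlaps were read.

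Counts were tested in R 4.3.3 with the quasi-likelihood test of edgeR 4.0.16 after filterByExpr and TMM, with 1 mean per group. The 12 libraries of a cell type were fitted together for comparisons of siRNAs and days (15303 genes in C2C12 cells, 16144 in PMs), and all 24 for comparisons between cell types (16926). P-values were adjusted by the Benjamini-Hochberg method over all tested genes, and a call needed this p under 0.05 with a change beyond 2-fold. CPM values share 1 TMM scaling over all 24 libraries. The fits were tested on simulated data. The 9 genes, the lists and the rules for naming genes were chosen with earlier results of these data known. Named beside the 9 are Tead1 and Tead4, listed genes called under siTead1/4, at most 4 others per list by their change at day 3, and the 2 most similar genes. Single markers were named after their values were seen. Ratios and intervals for Mstn were computed in Python 3 from summed counts. Alternatives were DESeq2 1.42.0 without shrinkage, RLE scaling, other filters, other sets of libraries, the replicate number as a block, and leaving out each library.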

Additional observations from a re-analysis of the deposited data

Results flagged for a closer look

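The change over differentiation in siControl cells differed between PMs and C2C12 cells for 5 genes of the axis by a test of the difference itself, the interaction of cell type and day in edgeR with all 24 libraries. The differences, the log2 change in PMs minus that in C2C12 cells, were -5.28 for Fst, -2.35 for Inhbb and 1.75 for Fstl3 at day 3. At day 6 they were -4.06 for Fst, -2.55 for Inhbb, 2.41 for Fstl3, 4.09 for Inhba and 1.54 for Fstl1. Over all tested genes 11.2% were called at day 3 and 12.7% at day 6. In the 8 fits that leave out 1 library, the day 6 call was lost in 7 for Fstl1 and 3 for Inhba, and the day 3 call in 3 for Inhbb. Both PM libraries of a later day were above both of day 0 for Fst, Fstl3, Fstl1 and Inhba, and Inhbb overlapped between days in PMs. Mstn is left out because its C2C12 groups lie at or near 0 counts. Cell type, strain, medium and handling cannot be told apart.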

How the results depend on the processing

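No value of a gene of the axis that was called in the main fit or an alternative changed sign between them. The signs of values called in neither were not compared. RLE in place of TMM changed no call. Of 1188 values with 1 library left out, 1140 stayed called or stayed not called, 45 lost a call and 3 gained one. Leaving out a library leaves a group with 1 sample, which is assumed to vary like the other groups, and 2 replicates limit every call. What a replicate number marks is not given in the sources used here. Deviations of same-numbered libraries correlated at -0.168 to 0.468 over 15 pairs of C2C12 groups (6 over 0.1) and 0.055 to 0.503 in PMs (14 of 15 over 0.1). With the replicate block no call of the axis was lost. Calls under siTead1/4 in PMs at day 6 went from 0 to 1 (Inhbb, 1.13, edgeR adjusted p = 0.0113), and from day 3 to day 6 in siControl PMs from 2 to 4 (Fst up and Acvr2b down). They went from 0 to 1 in the siTead1/4 effect of day 3 against day 0 in PMs (Mstn, 1.44, edgeR adjusted p = 0.0271) and in that effect in PMs against C2C12 cells at day 3 (Fst, 1.68, edgeR adjusted p = 0.0376). Inhba at day 3 in siControl PMs (1.05) and Acvr2b between cell types at day 0 (1.27) were called as well. The fit without 1 C2C12 library in the spread was chosen after seeing the data.

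Without the filter on low counts, calls under siTead1/4 went from 0 to 1 in C2C12 cells at days 0 and 6 and in PMs at days 0 and 6, and from 2 to 5 between days 3 and 6 of siControl PMs. The siTead1/4 effect against day 0 went from 0 to 2 at day 3 and 1 at day 6 in C2C12 cells and from 0 to 1 at both days in PMs, and between cell types from 0 to 1 at days 3 and 6. The cause was not tested. With at least 10 counts in every library the day 3 call under siTead1/4 in C2C12 cells went from 1 to 0. With the 4 libraries of a comparison alone it also went from 1 to 0, in PMs from 0 to 1 at day 0 and from 2 to 1 at day 3. With all 24 libraries the PM calls went from 2 to 0 at day 3 and from 2 to 1 between days 3 and 6. DESeq2 raised the calls from 0 to 1 in PMs at day 6 and, for the effect of day 3 against day 0, in C2C12 cells and PMs. Leaving out 1 library gave 0 to 0 calls of 1 in C2C12 cells and 0 to 1 of 2 in PMs at day 3 under siTead1/4. It gave 1 to 2 of 2 in siControl PMs both for day 3 against day 0 and for day 6 against day 3, and 2 to 3 of 4 for the day 3 difference between cell types.

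Over the settings other than leaving out a library, the number of genes called in the whole table under siTead1/4 in C2C12 cells ranged from 0 to 480 at day 0 (67 as reported), 7 to 1055 at day 3 (195) and 0 to 387 at day 6 (7). In PMs it ranged from 204 to 586 at day 0 (420), 312 to 804 at day 3 (532) and 0 to 335 at day 6 (120), and from 148 to 732 between days 3 and 6 of siControl PMs (452). Between day 3 and day 6 of siControl C2C12 cells it was 0 to 102 (0). For the effect against day 0 it was 0 to 745 (0) and 0 to 318 (0) in C2C12 cells and 7 to 373 (53) and 1 to 413 (101) in PMs, and between cell types 1 to 88 (1), 115 to 853 (212) and 0 to 146 (6) at days 0, 3 and 6. With at least 10 counts in every library, PMs and C2C12 cells differed at 2096, 2353 and 1662 genes (4534, 5044 and 4210), and their day changes at 1238 and 1349 (1901 and 2150).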
